A study of Mus musculus with 10 samples.

Results

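T cell receptor variable (V) gene segments were followed in the RNA of mouse splenic CD8+ T cells, at rest and after activation, in control mice and in mice with a conditional deletion of Dusp2 in CD8+ T cells. The 125 segments are the rows annotated as receptor V genes that held at least 50 counts summed over the 10 libraries, of 144 such rows and 57010 genes in all. They comprise 96 of 109 rows named Trav (alpha chain), 22 of 22 named Trbv (beta chain), 4 of 5 named Trdv (delta chain), 1 of 1 named Trgv (gamma chain) and 2 of 7 with other names, Tcrg-V4 and B230359F08Rik. Of the 19 rows below the minimum, 1 held no count. The segments were chosen by their summed count, so their abundance is a description. Just inside the minimum lay Trav15n-2 with 52 counts, Trdv2-1 with 55 and Trav23 with 56, and just outside it Tcrg-V1 with 49, Trav13d-3 with 47 and Tcrg-V6 with 35.

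The study's title concerns the phosphatase DUSP2, the BAF chromatin remodelling complex and CD8+ T cell effector programming. The cells came from 5 mice, all with both Dusp2 copies floxed. The 3 conditional knockout mice (Dusp2fl/fl-E8I-cre+/-, called cKO) also carried the E8I-cre transgene, which is active in CD8+ T cells, and the 2 control mice (Dusp2fl/fl-E8I-cre-/-) did not, so loss of Dusp2 and the presence of cre cannot be told apart. Each mouse gave 1 library of cells kept for 24 h with anti-CD3/CD28 beads (activated) and 1 kept for as long without beads (rested). Control mouse 1 and cKO mice 1 and 2 were male, and control mouse 2 and cKO mouse 3 were female. The labels give no ages. For cKO mouse 3 the titles of both its libraries contradict the other labels, and the groups used here follow the genotype label and the library name.

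A receptor chain is built in the thymus by cutting and joining DNA, so that 1 V segment comes to lie next to a joining (J) segment, with a diversity segment between them in beta and delta chains. The joined exon is transcribed from the promoter of the chosen V segment and spliced to a constant (C) segment, Trac for alpha and Trbc1 or Trbc2 for beta. The enhancers lie near the constant segments. Reads on a V row of mature T cells therefore report mainly how many cells chose that segment and how much receptor RNA each of them makes. In bulk RNA, fewer cells with a segment and less RNA per cell cannot be told apart. Levels here are set against the counts of a library or of a locus. The RNA content per cell is not known, so a rise or fall is not read as a change per cell. The Trav segments on chromosome 14 lie in duplicated blocks whose copies carry the suffixes d and n, and the Trdv segments lie among and beyond them, inside the same locus. The Trbv segments lie on chromosome 6.

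The ends of 6 segments that the results turn on are shown first. A V segment's 3′ end carries the cysteine codon that opens the junction (CDR3) and is the end at which the segment is joined. The sequences are the last 60 bases of the GENCODE M21 (GRCm38) transcripts, while positions are those of the deposited table in mm39. Capitals run from the cysteine codon to the end of the segment. A tyrosine codon, any codon and a cysteine codon in a row were present in the last 60 bases of 123 of the 125 segments.
Trbv29: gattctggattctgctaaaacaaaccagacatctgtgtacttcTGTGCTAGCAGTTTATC
Trbv13-1: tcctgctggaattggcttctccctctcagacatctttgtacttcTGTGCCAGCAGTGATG
Trbv13-2: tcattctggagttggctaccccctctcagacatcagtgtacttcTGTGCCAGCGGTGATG
Trbv15: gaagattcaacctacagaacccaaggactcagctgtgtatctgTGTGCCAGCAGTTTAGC
Trbv17: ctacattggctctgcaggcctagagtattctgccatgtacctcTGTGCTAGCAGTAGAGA
Trav1: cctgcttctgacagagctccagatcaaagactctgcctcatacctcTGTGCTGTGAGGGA

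The Trbv segments differ from each other enough for reads to be assigned, whereas many Trav segments have near copies. For each segment the share of its 50-base windows that occur in no other receptor V row or V pseudogene was computed as a description of this. It was at least 98.8% for every Trbv segment. Of the Trav rows, 37 had no such window, and 25 of these reached the minimum of 50 counts. The median total of these 37 rows was 105 counts. It was 846 for Trav rows with some but under 50% unique windows and 1186 for those with 50% or more. The last 60 bases of 43 of the 96 Trav segments equalled those of another Trav segment, against 0 of the Trbv segments. How reads that fit several copies were counted is not given in the sources used here, and the split of counts among Trav copies is uncertain.

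Libraries held 51203786 to 65135435 counts, of which the V segments took between 0.0542% and 0.0631%, and 3 counts corresponded to 0.0461 to 0.0586 CPM (counts scaled to the library total). Dusp2, the targeted gene, stood at 85.6 and 95.3 CPM in rested control cells and between 24.2 and 27.7 CPM in rested cKO cells, with a difference of -1.82 on the log2 scale (SE 0.08) and an adjusted p of 8.1e-08 by edgeR's quasi-likelihood test, Benjamini-Hochberg adjusted. In activated cells it stood at 299.9 and 303.8 CPM in control mice and at no more than 57.6 CPM in cKO mice (-2.49, SE 0.07, adjusted p = 1.18e-09). Cd8a, the CD8 alpha chain, stood between 526.3 and 648.3 CPM in all 10 libraries, and Cd4 at no more than 1.2 CPM. The 3 CD4 T cell markers together went from 2.71 to 9.18 CPM at rest to 12.8 to 34.1 CPM after activation, 2.89-fold to 4.74-fold higher in each mouse. Of them Zbtb7b, the transcription factor of the CD4 lineage, rose in both genotypes (2.35, SE 0.33, adjusted p = 0.000373, and 2.07, SE 0.26, adjusted p = 0.000138), and Cd4 and Foxp3 passed in neither. The 5 NK cell markers together held 3.32 to 12.5 CPM at rest and 4.64 to 13.1 CPM after activation, most of it Klrk1 (2.73 to 11.9 CPM), while Ncr1, the NK cell receptor, reached 0.0708 CPM. The 6 B cell markers held 277.0 to 360.5 and 232.4 to 287.9 CPM, nearly all of it Ighm, the immunoglobulin heavy chain mu (229.1 to 348.5 CPM), while Ms4a1 reached 0.102 CPM. The 6 myeloid markers together held 0.301 to 2.89 CPM. The part of these markers in the changes with activation was not tested.

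After activation the Trav segments rose as a locus and the Trbv segments fell slightly. Summed over the 96 segments, Trav stood at 124.1 and 144.2 CPM in the rested control mice and at 128.6, 126.3 and 135.2 CPM in the rested cKO mice. In activated cells it stood at 212.3 and 229.2 CPM in control and at 204.2, 207.7 and 230.2 CPM in cKO mice. No activated library overlapped a rested one, and in each mouse the level went up 1.59-fold to 1.71-fold. Summed Trbv went from 432.4 and 469.9 CPM in the control mice and 457.6, 411.8 and 433.7 CPM in the cKO mice at rest to 378.1 and 399.1 CPM and to 387.6, 372.3 and 395.2 CPM after activation. Each mouse's activated cells held between 0.847 and 0.911 times its rested level. Beta V segments held 3.35 ± 0.157 counts for each alpha V count at rest and 1.79 ± 0.0696 after activation (SD, n = 5 mice), so the 2 loci stood closer together in activated cells. Taken over all 125 segments, the sum moved from 576.8 ± 28.8 to 606.1 ± 22.1 CPM.

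Trac and most alpha joining segments rose like the Trav segments, and most beta joining segments fell, while the beta constant segments did not follow the Trbv segments as a pair. Trac stood at 438.8 ± 33.4 CPM at rest and 799.6 ± 45.6 CPM after activation (SD, n = 5 mice), a log2 fold change of 0.80 in control mice (SE 0.06, adjusted p = 1.21e-07) and 0.80 in cKO mice (SE 0.05, adjusted p = 8.47e-09). Of 50 alpha joining segments (Traj) tested, 38 rose in control and 40 in cKO mice, and none fell in either, where 28.5% and 31.5% of all genes tested rose. Of 13 beta joining segments (Trbj), 10 fell in control and 8 in cKO mice, where 27.6% and 31.9% of all genes fell. Trbj2-1 rose in cKO mice (0.20, SE 0.06, adjusted p = 0.00884) and had 0.09 in control mice (adjusted p = 0.317). Trbc1 stood at 253.3 ± 19.5 CPM at rest and 278.8 ± 15.4 CPM after activation, higher in all 5 mice, but passed in neither genotype (0.02, adjusted p = 0.862, and 0.11, adjusted p = 0.114). Trbc2 fell in control mice (-0.24, SE 0.07, adjusted p = 0.0149) and had -0.11 in cKO mice (adjusted p = 0.145). Trbc1 held 0.467 to 0.496 counts for each Trbc2 count at rest and 0.539 to 0.593 after activation, with no overlap. V counts per constant-segment count went from 0.300 ± 0.00887 to 0.271 ± 0.00485 for alpha and from 0.566 ± 0.0196 to 0.5 ± 0.0148 for beta, lower in activated cells in both.

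**Figure D1:**
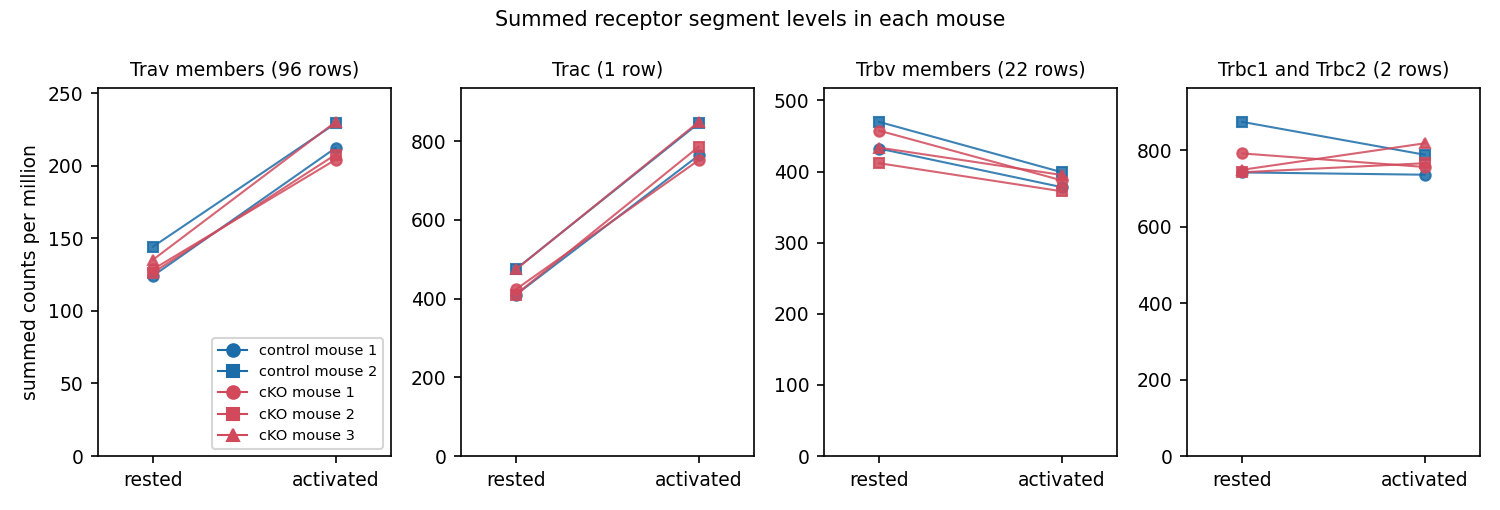
Summed CPM (vertical axis, from 0) of the Trav segments, Trac, the Trbv segments and both Trbc genes in rested and activated cells; each line joins the 2 libraries of 1 mouse, blue for control and red for cKO. Trav and Trac rise in all 5 mice and Trbv falls in all 5, while Trbc1 and Trbc2 together go up in some mice and down in others.

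Counts of single segments followed this split by locus. A segment was called changed at an adjusted p below 0.05 over all 18966 genes tested, and 122 of the 125 segments passed the filter on low counts (Trav15n-2, Trav18 and Trav23 did not). In control mice 54 of the 122 were called, 39 higher and 15 lower, where 56.1% of all genes tested were called (28.5% higher and 27.6% lower). In cKO mice 70 were called, 52 higher and 18 lower, against 63.4% of all genes (31.5% higher and 31.9% lower). The median log2 fold change of the segments was 0.44 in control and 0.53 in cKO mice, against 0.0 and -0.01 over all genes. Because the minimum summed activated and rested counts, a scarce segment could pass it through 1 state alone. With a minimum of 200 counts, 54 and 66 of 102 segments were called in this same fit, beside the same 56.1% and 63.4% of all genes. Fewer segments were called in control mice when control mouse 1 or control mouse 2 was left out. A lone control mouse takes its spread from the other groups there. The share of all genes called there is not given, so the drop is not read as a result about the segments. Scaled to the Trav counts instead of all genes, the split was 10 higher and 30 lower in control mice. In cKO mice it was 10 higher and 34 lower. Of all genes, 11.5% were then called higher and 55.6% lower in control mice, and 13.5% and 59.2% in cKO mice. Scaled to the Trbv counts the split was 59 higher and 2 lower in control mice, and 68 higher and 6 lower in cKO mice. There 54.1% and 61.7% of all genes were called in either direction. Their shares by direction are not given for the Trbv scaling, so its split is not read as a result about the segments. These scalings shift the median of all genes to -0.66 in both genotypes (Trav) and to 0.28 and 0.23 (Trbv).

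Among the Trav segments 39 of 93 rose and 1 fell in control mice, with a median log2 fold change of 0.64 and a range from -0.77 to 2.45. In cKO mice 51 rose and 1 fell, with a median of 0.74 and a range from -0.68 to 2.44. The 37 segments called higher in both genotypes were 94.9% of the control calls and 72.5% of the cKO calls. All 5 activated libraries lay above all 5 rested ones for 47 of the 96 Trav segments, and for none did they all lie below. Over all genes tested, 31.5% were separated upward and 25.1% downward in this way. Of the 22 Trbv segments none rose and 12 fell in control mice (median -0.25), and 1 rose and 13 fell in cKO mice (median -0.26), with 10 of the falls shared. Libraries did not overlap for 7 falling Trbv segments and for 1 rising one.

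**Figure D2:**
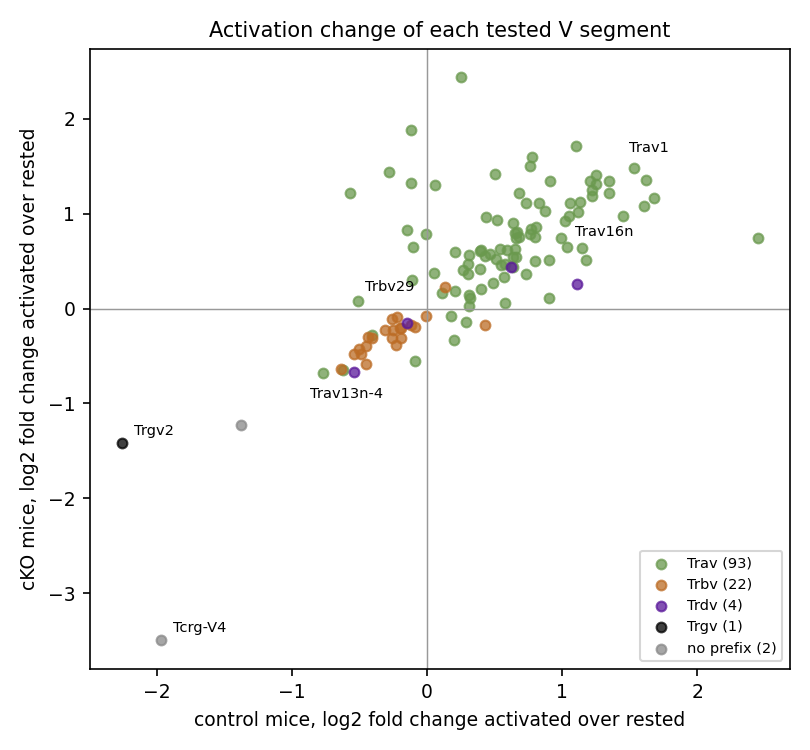
Log2 fold change of activated over rested cells in control mice (horizontal) and cKO mice (vertical) for each of the 122 tested segments, coloured by locus. Trbv segments cluster just below 0 on both axes, Trav segments lie mostly above 0, and Trgv2 and Tcrg-V4 lie lowest.

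Trbv13-2 (chr6:41098330-41098766), which encodes the mouse V beta 8.2 region, was the most abundant beta segment per length, at 175.3 ± 13.4 FPKM (deposited counts scaled to gene length and library) at rest and 143.2 ± 5.98 FPKM after activation. Trbv12-2 followed at 122.4 ± 8.52 FPKM in rested cells and Trbv12-1 at 90.8 ± 3.53 FPKM. Trbv29 at 80.5 ± 2.67 FPKM and Trbv13-1 at 80.2 ± 6.18 FPKM did not differ beyond their spread at rest. The order continued through Trbv13-3, Trbv16, Trbv3, Trbv1, Trbv15, Trbv19, Trbv4, Trbv14, Trbv17, Trbv5, Trbv2, Trbv31, Trbv20 and Trbv26 (19.8 ± 1.03 FPKM), with most neighbours within their spread. Trbv30 and Trbv23 stood at 4.22 ± 0.294 and 4.09 ± 0.491 FPKM and Trbv21 at 0.938 ± 0.293 FPKM, well below the others.

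Trbv13-2 held 60.4 and 65.9 CPM in rested control mice and 60.6, 53.1 and 58.9 CPM in rested cKO mice. After activation it held 49.5 and 47.8 CPM in control mice and 51.6, 49.0 and 46.1 CPM in cKO mice, every activated library below every rested one. Its log2 fold change was -0.44 in control mice (SE 0.08, adjusted p = 0.000377) and -0.30 in cKO mice (SE 0.07, adjusted p = 0.00129), and its share of Trbv counts went from 13.5% to 12.6%, lower in 3 of 5 mice. This fall was thus close to that of the whole locus.

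Trbv17 (chr6:41139996-41140490) had the largest fall of the Trbv calls in both genotypes. It held 12.0 and 12.7 CPM in rested control mice and 14.4, 12.6 and 13.4 CPM in rested cKO mice. Activated cells held 7.94 and 8.6 CPM in control mice and 8.52, 8.89 and 9.88 CPM in cKO mice, with no overlap between the states. The log2 fold change was -0.64 in control (SE 0.11, adjusted p = 0.000264) and -0.64 in cKO mice (SE 0.09, adjusted p = 3.55e-05). Trbv19 had -0.54 (SE 0.10, adjusted p = 0.000441) and -0.48 (SE 0.08, adjusted p = 0.000167). Trbv15 had -0.45 (SE 0.11, adjusted p = 0.00286) and -0.58 (SE 0.09, adjusted p = 5.59e-05). Without control mouse 2, Trbv15 no longer passed in control mice (-0.40, adjusted p = 0.0881). Trbv1, Trbv16 and Trbv26 fell in both genotypes with no overlap between the states, at log2 fold changes between -0.31 and -0.49. Trbv26 no longer passed in control mice without control mouse 1 (-0.31, adjusted p = 0.265), nor Trbv16 in control mice without control mouse 2 (-0.35, 0.0835) or in cKO mice without cKO mouse 2 (-0.23, 0.055). Trbv3 fell in control mice (-0.22, adjusted p = 0.0406), but with each mouse as a block the adjusted p was 0.0746, and it had -0.09 (adjusted p = 0.249) in cKO mice.

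Trbv29 (chr6:41248328-41248815) was the Trbv segment that rose, though less than the Trav segments did, so that scaled to the Trav counts it had -0.42 in cKO mice. It held 27.6 and 30.1 CPM in rested control mice, 28.5, 28.1 and 28.1 CPM in rested cKO mice, 32.0 and 33.9 CPM in activated control mice and 35.3, 32.1 and 36.4 CPM in activated cKO mice. All activated libraries lay above all rested ones. The log2 fold change was 0.23 in cKO mice (SE 0.06, adjusted p = 0.00593) and 0.13 in control mice (SE 0.08, adjusted p = 0.179), and the difference between genotypes did not pass (0.10, SE 0.10, adjusted p = 1.0). Without cKO mouse 3 the cKO value was 0.18 (adjusted p = 0.0655). Trbv13-1, whose end is printed above beside that of Trbv13-2, held 26.8 to 32.3 CPM at rest and 27.8 to 32.2 CPM after activation and passed in neither genotype.

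Shares of the locus set each segment against the others of its kind, whatever the overall level of receptor RNA. Trbv29 made up 6.39% and 6.40% of Trbv counts in rested control mice and 6.23%, 6.82% and 6.48% in rested cKO mice. After activation it made up 8.48% and 8.50% in control and 9.12%, 8.61% and 9.21% in cKO mice, higher in all 5 mice. Trbv13-1 went from a mean of 6.67% to 7.68% and Trbv12-2 from 10.7% to 11.4%, also higher in all 5. Shares of Trbv17 (2.95% to 2.27%), Trbv15 (4.11% to 3.41%), Trbv19 (5.53% to 4.65%), Trbv1, Trbv20 and Trbv26 were lower in all 5 mice. Trbv20 was picked with its values in view. Shares of the other 13 segments went up in some mice and down in others.

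The same test with the library size set to the Trbv counts asks which segments moved relative to the locus and was read for the Trbv segments only. In it 54.1% of all genes were called in control and 61.7% in cKO mice. Of the 22 segments, 3 were called in control mice, Trbv29 (0.41, SE 0.10, adjusted p = 0.000847), Trbv13-1 (0.27, SE 0.10, adjusted p = 0.0237) and Trbv17 (-0.36, SE 0.14, adjusted p = 0.0261). In cKO mice 4 were called, Trbv29 (0.46, SE 0.08, adjusted p = 1.12e-05), Trbv15 (-0.34, SE 0.10, adjusted p = 0.00382), Trbv17 (-0.39, SE 0.11, adjusted p = 0.00281) and Trbv19 (-0.24, SE 0.09, adjusted p = 0.0245). Relative to the other beta segments, then, Trbv29 rose and Trbv17 fell in both genotypes.

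**Figure D3:**
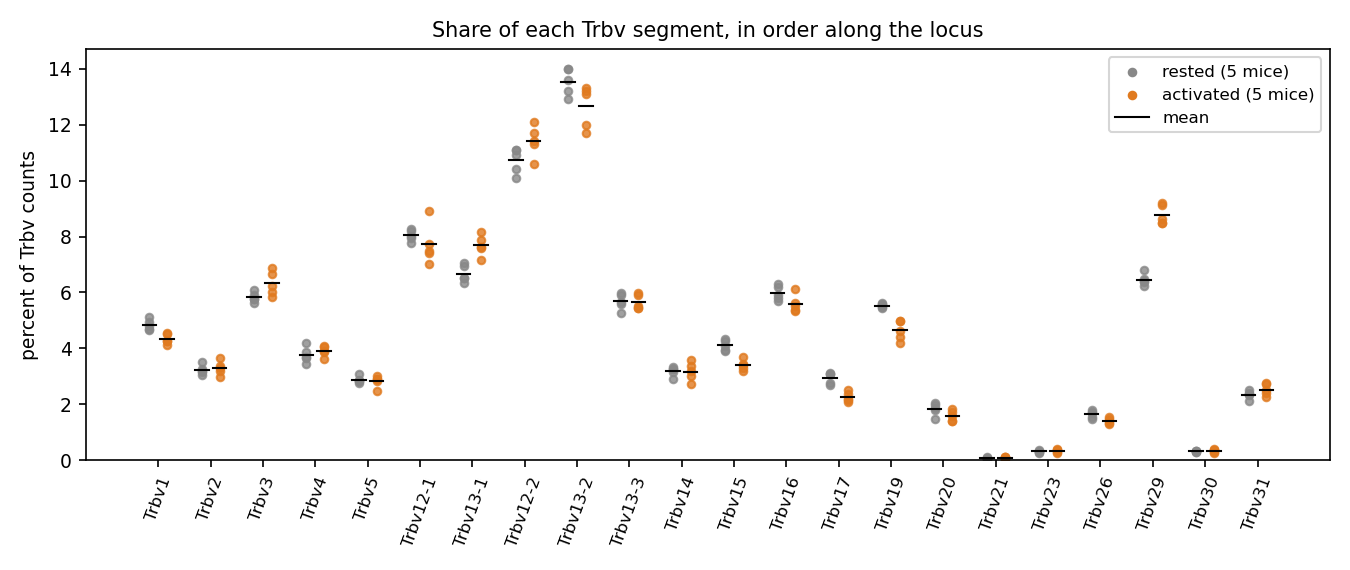
Percent of Trbv counts (vertical axis, from 0) held by each Trbv segment in order along the locus, with 1 point for each of 5 mice in rested (grey) and activated (orange) cells and a bar at the mean. Trbv29 shows the clearest separation, 6.46% against 8.78% on average, and Trbv17, Trbv15 and Trbv19 shift down.

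Counts of the alpha locus were spread over more segments than those of the beta locus, but over a smaller part of the segments there. Trav rows without unique windows held fewer counts. The part of this in the Trav values of this paragraph was not tested, so they describe counts and not usage. Per length Trav13-1 led at rest with 18.3 ± 2.19 FPKM, followed by Trav14n-3 (14.9 ± 1.85), Trav16n (13.7 ± 1.09), Trav12-2 (13.4 ± 1.33) and Trav16 (12.7 ± 1.24), the last 4 within their spread. After activation Trav16n led with 31.3 ± 3.78 FPKM, followed by Trav16 (27.7 ± 1.81) and Trav13-1 (24.5 ± 1.97). The effective number of segments (the inverse Simpson index, which equals the number of segments when all are equally used) was 46.9 ± 1.61 at rest and 44.9 ± 0.435 after activation, of 96 Trav segments, against 14.6 ± 0.276 and 14.2 ± 0.376 of 22 Trbv segments.

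The copies of Trav16 and of 2 Trav13 segments are shown because the Trav16 copies rose and the copies of Trav13-4 and Trav13-1 moved apart, and because the sequences show how alike the copies are. Capitals mark the positions that differ among the copies of each segment in the last 60 bases. Trav13n-4, Trav13-4-dv7, Trav13d-4, Trav13n-1, Trav13d-1 and Trav16d-dv11 are not covered by the naming rule and were picked with their values in view.
Trav16: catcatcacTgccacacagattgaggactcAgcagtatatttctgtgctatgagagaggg
Trav16n: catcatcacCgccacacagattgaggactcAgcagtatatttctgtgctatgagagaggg
Trav16d-dv11: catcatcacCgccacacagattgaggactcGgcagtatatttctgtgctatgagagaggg
Trav13-4-dv7: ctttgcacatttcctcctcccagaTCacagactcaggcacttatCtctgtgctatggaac
Trav13n-4: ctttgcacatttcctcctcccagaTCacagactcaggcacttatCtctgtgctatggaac
Trav13d-4: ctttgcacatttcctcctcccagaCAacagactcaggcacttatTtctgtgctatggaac
Trav13-1: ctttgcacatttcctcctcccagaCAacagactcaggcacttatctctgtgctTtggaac
Trav13n-1: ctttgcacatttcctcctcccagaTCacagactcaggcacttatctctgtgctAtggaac
Trav13d-1: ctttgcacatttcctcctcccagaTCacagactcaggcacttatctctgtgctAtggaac
Over their last 250 bases Trav16 and Trav16n were 98.8% identical and Trav16n and Trav16d-dv11 99.2%. Trav13-4-dv7 and Trav13n-4 were 91.6% identical, with 0 differences in the last 60 bases, and Trav13n-1 and Trav13d-1 were 99.6% identical.

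All 3 Trav16 copies rose in both genotypes. Trav16n (chr14:53588485-53589078) held 5.63 and 6.06 CPM in rested control mice and 4.94, 5.82 and 6.01 CPM in rested cKO mice, and 13 and 13.7 CPM and 11.2, 12.0 and 15.3 CPM after activation. Trav16 (chr14:53980561-53981162) held 4.89 and 5.87 CPM in rested control mice, 4.86, 5.21 and 5.95 CPM in rested cKO mice, 11.6 and 12.8 CPM in activated control and 11.2, 10.8 and 12.0 CPM in activated cKO mice. For both, every activated library lay far above every rested one. The log2 fold change of Trav16n was 1.13 (SE 0.13, adjusted p = 7.08e-06) in control and 1.12 (SE 0.11, adjusted p = 7.06e-07) in cKO mice, and that of Trav16 was 1.12 (SE 0.12, adjusted p = 2.57e-06) and 1.02 (SE 0.09, adjusted p = 5.4e-07). Trav16d-dv11 had 0.87 and 1.03 (adjusted p = 0.00416 and 0.000253), and in control mice its adjusted p was 0.0576 without control mouse 1 and 0.0573 without control mouse 2. Summed over the copies, which removes any misassignment among them, Trav16 went from 13.3 ± 0.853 to 29.3 ± 2.76 CPM, and from 10.1% to 13.5% of Trav counts, higher in all 5 mice.

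The Trav13-4 copies went the other way. Trav13n-4 (chr14:53599724-53601563) was the single Trav segment called lower in either genotype. It held 1.62 and 2.15 CPM in rested control mice, 2.11, 2.14 and 2.09 CPM in rested cKO mice, 1.22 and 1.07 CPM in activated control mice and 1.47, 1.04 and 1.63 CPM in activated cKO mice, so that the highest activated library just passed the lowest rested one. Its log2 fold change was -0.77 (SE 0.25, adjusted p = 0.0187) in control and -0.68 (SE 0.20, adjusted p = 0.00984) in cKO mice. Without control mouse 2 the control value was -0.48 (adjusted p = 0.37), and without cKO mouse 2 the cKO value was -0.48 (adjusted p = 0.112). Trav13-4-dv7 had -0.41 and -0.28 and Trav13d-4 had -0.62 and -0.65, none past the threshold. Summed, the 3 copies stood at 4.64 ± 0.581 CPM at rest and 3.38 ± 0.339 CPM after activation, lower in 5 of 5 mice, and their share of Trav counts went from 3.52% to 1.56%.

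Among the Trav13-1 copies, Trav13-1 itself rose in control mice (0.49, SE 0.15, adjusted p = 0.0124) and had 0.27 in cKO mice (SE 0.12, adjusted p = 0.0756). Without control mouse 2 its control value was 0.25 (adjusted p = 0.389). Trav13d-1 rose by 1.68 and 1.17 on the log2 scale in control and cKO mice, though in control mice not without control mouse 1 (1.47, adjusted p = 0.0666). Trav13n-1 had 0.66 and 0.54, just past the threshold (adjusted p = 0.0479 and 0.0439), and neither call held without the sex term (0.0618 and 0.0545) or with mouse as a replicate block (0.0697 and 0.0654). Its control value without control mouse 2 was 0.39 (adjusted p = 0.495), its cKO value without cKO mouse 3 was 0.37 (adjusted p = 0.258), and scaled to the Trav counts its cKO value was -0.11. The summed Trav13-1 copies went from 7.27 ± 0.864 to 10.3 ± 0.665 CPM, higher in 5 of 5 mice, while their share of the locus went from 5.56% to 4.76%, lower in 4 of 5. The Trav13-1 and Trav13-4 copies thus moved apart although Trav13n-4 and Trav13n-1 had 0 differences in the last 60 bases and were 91.6% identical over 250.

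**Figure D4:**
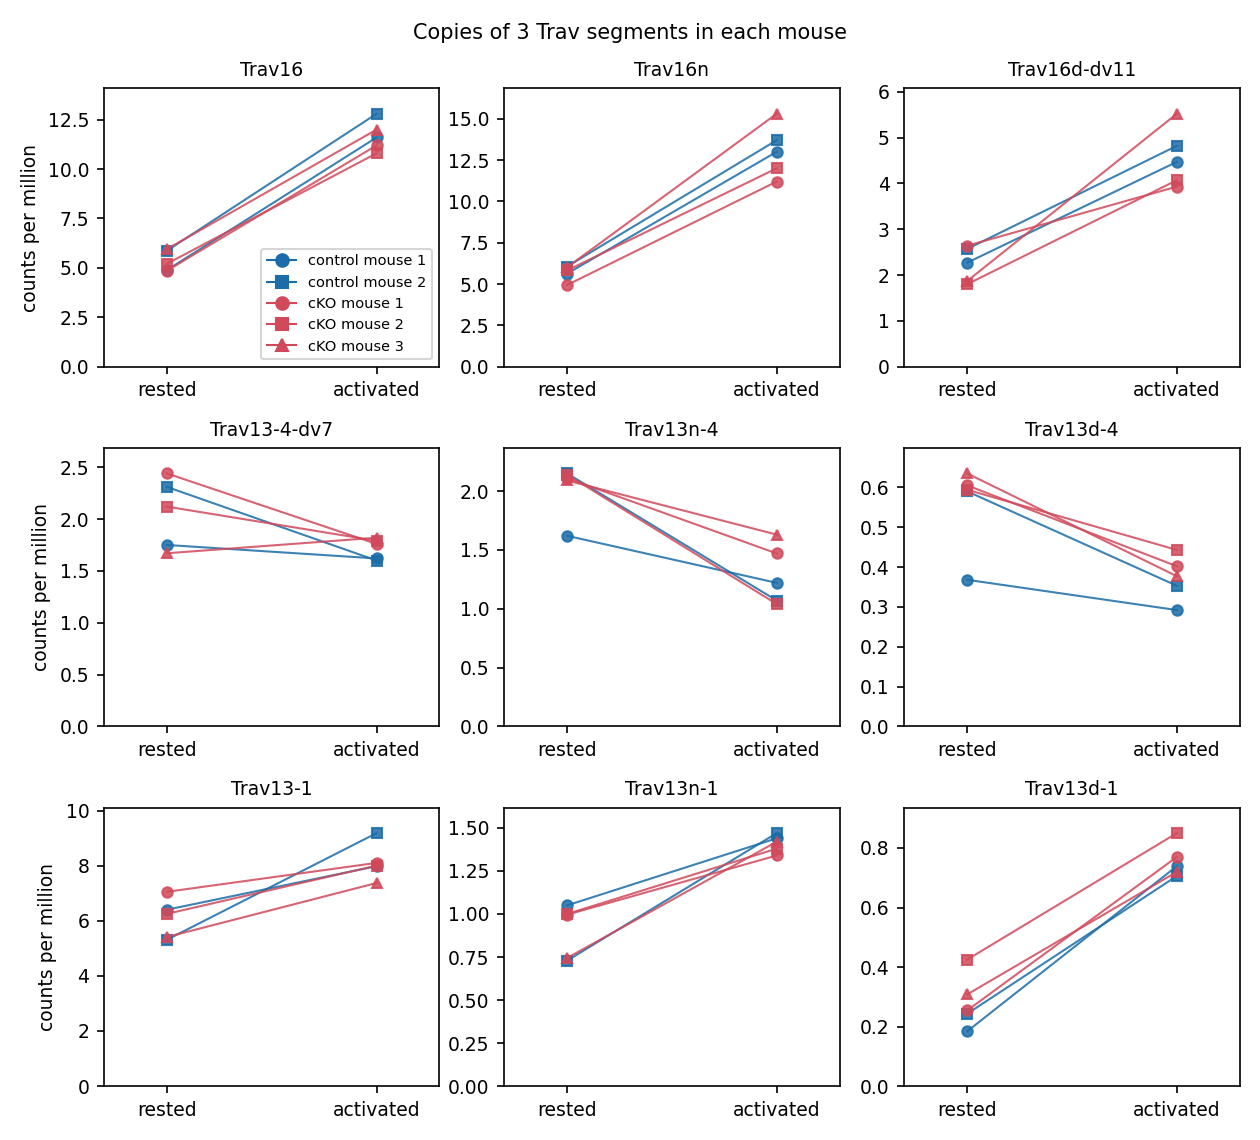
CPM (vertical axes, from 0) of the copies of Trav16 (top), Trav13-4 (middle) and Trav13-1 (bottom) in rested and activated cells; each line joins the 2 libraries of 1 mouse. The lines of the Trav16 and Trav13-1 copies go up in every mouse, and those of the Trav13-4 copies go down in every mouse but for Trav13-4-dv7 in cKO mouse 3.

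Trav1 (chr14:52665385-52666333), the V segment of the semi-invariant receptor of MAIT cells, is the segment farthest from the constant end of the locus among those shown above, and all its 50-base windows were unique. It held 0.752 and 1.04 CPM in rested control mice, 0.82, 0.577 and 0.599 CPM in rested cKO mice, 2.27 and 3.18 CPM in activated control mice and 1.82, 1.81 and 2.23 CPM in activated cKO mice. The states did not overlap. The log2 fold change was 1.53 (SE 0.26, adjusted p = 0.000207) in control and 1.48 (SE 0.22, adjusted p = 5.7e-05) in cKO mice. Trav11 and Trav11d, the segments of invariant NKT cell receptors, held 0 to 0.372 CPM and 0.0976 to 0.496 CPM and passed in neither genotype. Other markers of these cells moved both ways: Zbtb16, the transcription factor of innate-like T cells, rose (1.33, adjusted p = 0.0321, and 1.15, adjusted p = 0.0252), and Klrb1c, the receptor NK1.1, fell (-1.54, adjusted p = 0.018, and -1.71, adjusted p = 0.0019). The 6 markers together, Trav1 and both Trav11 rows included, held 1.80 to 2.48 CPM at rest and 3.04 to 4.74 CPM after activation. Their part in the Trav1 result was not tested.

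Other well-represented Trav segments rose at differing rates. Trav8d-2 rose by 1.35 (SE 0.18, adjusted p = 2.17e-05) and 1.22 (SE 0.14, adjusted p = 5.19e-06) on the log2 scale in control and cKO mice, from 1.45 to 1.90 CPM at rest to 3.71 to 4.56 CPM. Trav3-3 rose by 1.02 and 0.92 (adjusted p = 0.000118 and 3.82e-05) and Trav7-5 by 0.77 and 0.84 (adjusted p = 0.000536 and 3.67e-05). Trav12-2 rose by 0.43 and 0.56 (adjusted p = 0.0242 and 0.00116), less than the locus median, and scaled to the Trav counts it had -0.22 and -0.09. Without control mouse 1 its control value was 0.13 (adjusted p = 0.641), and without control mouse 2 Trav7-5 had 0.63 (adjusted p = 0.0502) in control mice. Trav6n-6, Trav6-3, Trav12n-3 and Trav8n-2 also rose in both genotypes, the first 2 of them not in control mice without control mouse 1 (0.62, adjusted p = 0.104, and 0.61, adjusted p = 0.158). Of the 8 Trav segments with the largest shares, Trav14n-3 (0.31 and 0.03) and Trav9-2 (0.32 and 0.11) passed in neither genotype.

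Within the alpha locus, 16 of 96 segments had a higher share after activation in all 5 mice and 12 had a lower one. Summed into the 21 name families, 5 had a higher share in all 5 mice (Trav1, Trav2, Trav3, Trav8 and Trav16). The share was lower in all 5 mice for 5 families (Trav9, Trav13, Trav14, Trav15 and Trav19). Such sums remove misassignment among the segments summed. They leave out rows below the minimum, pseudogenes and B230359F08Rik, some of which share windows with the segments summed, and any reads left uncounted. The largest shifts were a gain of 3.4 percentage points by Trav16 and a loss by Trav13 (-3.30 points). With the library size set to the Trav counts, 10 segments were called higher and 5 lower of 93 in control mice, where 11.5% of all genes were called higher and 55.6% lower. In cKO mice 10 were called higher and 9 lower, against 13.5% and 59.2% of all genes. Trav16n (0.47 and 0.47), Trav16 (0.46 and 0.37), Trav1 (0.88 and 0.83) and Trav8d-2 (0.69 and 0.57) were called higher in both genotypes, and Trav13n-4 was called lower in both (-1.43, SE 0.26, adjusted p = 9.6e-05, and -1.33, SE 0.21, adjusted p = 1.62e-05). Trav14n-3 and Trav9-2 were called lower in cKO mice (-0.63 and -0.54) and had -0.35 and -0.33 in control mice. Back on the scale of all genes, 39 of 93 Trav segments rose in control and 51 in cKO mice, where 28.5% and 31.5% of all genes did. Of the 39 segments with at least 50% unique windows, 22 rose in each genotype, with medians of 0.58 and 0.60. Of those with none, 3 of 24 rose in control and 10 of 24 in cKO mice. Their medians were no lower (0.66 and 1.15), and 21 and 22 of the 24 had positive values. Their counts were lower, with a median total of 105 against 1186 over the Trav rows of each kind.

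Segments of gamma delta T cells were scarce. Trgv2 held 0.585 and 0.608 CPM in rested control mice, 0.488, 0.374 and 0.762 CPM in rested cKO mice, 0.12 and 0.154 CPM in activated control mice and 0.134, 0.0354 and 0.532 CPM in activated cKO mice, where cKO mouse 3 lay inside the rested range. It fell by 2.26 on the log2 scale in control (adjusted p = 0.0117) and by 1.42 in cKO mice (adjusted p = 0.0306). Neither call was stable: the control one was lost without control mouse 1 (adjusted p = 0.0795) or control mouse 2 (0.0689), and the cKO one without cKO mouse 1 (0.166) or cKO mouse 2 (0.0982). Tcrg-V4 held 0.156 to 0.871 CPM at rest and 0 to 0.151 CPM after activation. It fell in cKO mice (-3.50, SE 0.79, adjusted p = 0.0017) and had -1.97 in control mice (adjusted p = 0.0978). B230359F08Rik, a V row without a receptor name, is not counted here as a gamma delta segment. The only 50-base windows it shared with other V rows were those of Trav13-4-dv7, Trav13d-1 and Trav13d-3. B230359F08Rik fell in both genotypes (-1.38, adjusted p = 0.0237, and -1.23, adjusted p = 0.0144). Its control call was lost without control mouse 1 (adjusted p = 0.108) or control mouse 2 (0.17), and its cKO call without cKO mouse 1 (0.109) or cKO mouse 2 (0.0584).

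Of the Trdv segments, Trdv2-2 held 0.859 to 1.65 CPM at rest and 0.783 to 1.17 CPM after activation. It fell in cKO mice (-0.67, SE 0.26, adjusted p = 0.0396), a call lost without cKO mouse 2 (adjusted p = 0.144), cKO mouse 3 (0.206) or control mouse 1 (0.0509), and had -0.54 in control mice (adjusted p = 0.162). Trdv1 (0.62 and 0.44), Trdv5 and Trdv2-1 passed in neither. The delta constant segment Trdc went from 7.44 to 9.42 CPM at rest to 5.13 to 5.68 CPM, and fell in both genotypes (-0.77, adjusted p = 0.000204, and -0.60, adjusted p = 0.000255). The 6 gamma delta markers together, Trdc and the gamma constant segments included, held 10.4 to 12.4 CPM at rest and 6.21 to 7.19 CPM after activation, while Sox13 and Blk stayed at or under 0.163 CPM. Their part in the fall of Trgv2, Tcrg-V4 and Trdv2-2 was not tested.

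The receptor complex and the recombination genes are given beside the segments. All 6 chains that carry or assist the receptor (Cd3d, Cd3e, Cd3g, Cd247, Cd8a, Cd8b1) fell in both genotypes, with a median log2 fold change of -0.40 in control and -0.38 in cKO mice, unlike the Trav segments and Trac, where 27.6% and 31.9% of all genes fell. Of 16 factors known to bind alpha or beta enhancers or promoters, 4 rose and 9 fell in control mice and 3 rose and 11 fell in cKO mice, where 56.1% and 63.4% of all genes were called in either direction. Among them Tcf7 (-1.0 and -1.05), Lef1 (-1.21 and -1.24), Ets1 (-1.06 and -1.05) and Runx1 (-1.05 and -0.98) fell, and Myb (1.99 and 1.77) and Atf1 (0.55 and 0.54) rose. Of 10 listed recombination genes 9 were tested. In control mice 4 rose and 3 fell, and in cKO mice 5 rose and 3 fell, beside the same shares of all genes. Among those listed, Rag1, a subunit of the recombinase, was at 0 to 0.17 CPM at rest and 0.536 to 1.27 CPM after activation. Its partner Rag2 stayed at or under 0.0347 CPM in all 10 libraries. Dntt, which adds bases at junctions, fell (-1.62 and -1.75). The markers of thymocytes and recombining cells (Rag1, Rag2, Dntt and Ptcra) together went from 4.22 ± 0.465 CPM at rest to 2.37 ± 0.64 CPM after activation.

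Genotype left the V segments without a call. None of the 122 segments passed between cKO and control mice in rested cells, where 0.0422% of all genes did (8 genes), and none in activated cells, where the share was again 0.0422%. At an unadjusted p below 0.05 there were 6 segments at rest and 1 after activation. The share of all genes below this unadjusted p was not computed. Counts at an unadjusted p, here and below, are therefore not read as a result about the segments. DESeq2's Wald test and limma-trend also called none in either state. The median log2 fold change of the Trav segments was -0.07 at rest and -0.03 after activation, and that of the Trbv segments was -0.02 and -0.01. Trbv values were tight, from -0.20 to 0.15 after activation and from -0.18 to 0.71 at rest, where the highest was that of the scarce Trbv21. Trav values spread from -2.44 to 0.86 at rest and from -2.02 to 1.5 after activation, with standard errors that grow as counts fall.

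The smallest p at rest was that of Trav17, which held 1.27 and 1.34 CPM in control mice and 1.93, 1.75 and 2.05 CPM in cKO mice (0.57, SE 0.20, adjusted p = 1.0). The libraries did not overlap, but the difference did not pass. After activation, Trav17 held 2.67 and 3.56 CPM in control and 2.61, 3.13 and 2.76 CPM in cKO mice, with overlap. Trav12n-2 (-0.80, SE 0.33) and Trav5d-4 (-1.55, SE 0.67) came next at rest, both with an adjusted p of 1.0. In activated cells the smallest p was that of Trbv12-1, at 33.7 and 30.9 CPM in control and 28.8, 27.8 and 27.8 CPM in cKO mice (-0.20, SE 0.07, adjusted p = 0.725), ahead of Trav7d-5 (-2.02, SE 1.03) and Trav1 (-0.43, SE 0.22), both at 0.838. With 2 control mice these values do not show that usage is the same in both genotypes.

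The test of whether the activation change differed by genotype also called none of 122 segments, and none of all genes (0%). At an unadjusted p below 0.05 there were 3 segments, Trav17 (-0.68, SE 0.27), Trav9n-4 (0.92, SE 0.40) and Trav8n-2 (-0.51, SE 0.23), each with an adjusted p of 1.0. DESeq2 and limma-trend called none here either. The larger number of segments called in cKO than in control mice is therefore not shown to be a difference between the genotypes, and there were 3 cKO and 2 control mice.

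**Figure D5:**
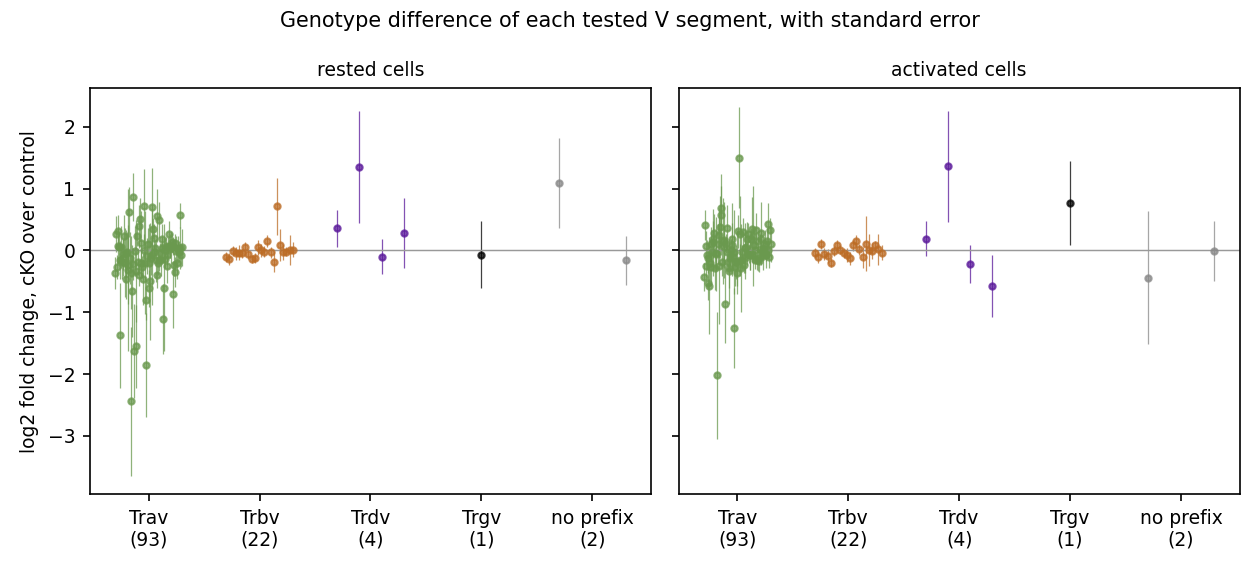
Log2 fold change of cKO over control (vertical axis) with its standard error for each tested segment by locus, in rested cells (left) and activated cells (right). Trbv values lie close to 0 with small errors, Trav values scatter around 0 with errors that are wide for the lowest and highest values, and no segment passed the test.

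Female and male mice, which also differ in the number at the start of their names, had no segment past the threshold, where 4.07% of all genes were called. The smallest adjusted p was that of Trav7-2 (female minus male 0.86, SE 0.24, adjusted p = 0.0687), which held 0.556, 0.562, 0.875 and 0.755 CPM in the female libraries and no more than 0.435 CPM in the male ones. Trav8-1 had 0.32 (adjusted p = 0.126) and Trav13-2 had 0.50 (adjusted p = 0.131). At an unadjusted p below 0.05 there were 15 segments, a count again without its share over all genes. Of the 93 Trav segments 73 were higher in the female mice, with a median of 0.15. Of the 22 Trbv segments 16 were, with a median of 0.08. The median over all genes was 0. Segments share the libraries and are not independent, so these tallies do not replicate a sex difference.

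Shifts in usage with activation were, by their median, larger than those between mice. The points of Trav share that would have to move to turn a mouse's rested profile into its activated one had a median of 12.6 (12.4 to 15.4, 5 mice). Between mice of the same genotype and state the median was 7.94 (6.28 to 11.3, 8 pairs), and between mice of different genotype in the same state it was 8.11 (6.18 to 10.4, 12 pairs). For Trbv the values were 5.42 (4.93 to 7.33), 3.17 (1.92 to 4.67) and 3.0 (2.24 to 4.95). For Trav the state pairs did not overlap either kind of mouse pair. For Trbv they overlapped the upper end of the pairs of different genotype by a small margin.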

How the data were processed

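RNA was sequenced in 10 libraries of 5 mice (3 cKO, 2 control, rested and activated). The kit was a stranded mRNA kit, per the labels' protocols. Subread, FastQC, MultiQC and the build mm39 are named in the submitters' processing notes, without versions. Not given in the sources used here are aligner settings, annotation release and how strand and reads fitting several copies were handled. The counts deposited by the authors are whole numbers per gene. Their deposited FPKM are those counts over the column sum and over gene length plus 1 (largest relative deviation 9.4e-07) and were used to compare levels between segments.

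The members and gene lists were chosen with earlier results of these data known. The counts of all 10 libraries were fitted with edgeR 4.0.16 in R 4.3.3 (robust quasi-likelihood, TMM, filterByExpr by group, group means plus sex), with Benjamini-Hochberg adjustment over 18966 genes. SE is the log2 fold change over the square root of F. CPM are scaled to the column total and are not adjusted for sex. Python 3.11.15 and pandas 2.3.3 made tables and figures. The fit was tested on simulated data. The p-values of the main fit rest on the spread between libraries within groups, pooled over the groups and in part borrowed from other genes. Both libraries of a mouse entered that fit as separate libraries, without a mouse term. Replicate libraries differed beyond sampling noise (chi-square over degrees of freedom 9.23 to 45.99), and floors and intervals cover counting error only. The biological coefficient of variation had a median of 7.94% over Trbv and 17.3% over Trav segments.

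Segments were named by rule: the 8 largest shares per locus, up to 8 called in each direction per comparison by smallest p, the 3 smallest p where fewer than 3 were called, the 3 rows on each side of the minimum, and Trav1, Trav11 and Trav11d. Exceptions are stated. Rested and activated libraries of a mouse share the animal; how far each lay from its group mean correlated at 0.34, 0.34, 0.24, 0.14 and 0.31 over all genes (control mice first). Control and cKO mice of 1 number are different animals. Alternatives were other scalings, filters (none, or 5 CPM in 2 libraries), no sex term, a mouse block, DESeq2 1.42.0, limma 3.58.1 on log2(FPKM + 0.5), a minimum of 200 counts, and leaving out each mouse. Scaling to the Trav or the Trbv counts was added after seeing the data. Promoter sequences were not used here.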

Additional observations from a re-analysis of the deposited data

How the results depend on the processing

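The genotype comparisons and their interaction with activation called 0 segments in 14 of 14 settings each. They had 0 to 11, 1 to 7 and 0 to 5 segments at an unadjusted p below 0.05. The higher minimum of summed counts only takes a subset of segments from the main fit. Its 0 calls were therefore fixed in advance and add nothing to this tally. With each mouse as a replicate block, 51 segments were called in control and 67 in cKO mice and 0 for the interaction; among the named segments it ended the calls of Trbv3 in control mice and of Trav13n-1 in both genotypes. The replicate number as a block gave 0 and 0 between genotypes, where the numbers pair no animals. Leaving out 1 mouse at a time gave 25 to 54 called segments in control and 53 to 66 in cKO mice, where a lone control mouse takes its spread from the other groups. A filter of 5 CPM in 2 libraries left 28 segments and called 19 in control and 22 in cKO mice. Limma-trend called 51 higher and 11 lower in control mice. The share of all genes called in each setting is not set beside these counts, which show only how the calls depend on the setting. Scaling to the Trav counts gave 44 in cKO mice. Female against male mice, no filter called 3 (Trav7-2, Trav13-2 and Trgv2) and limma-trend 1 (Trav7-2).

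Summed log2 change was 0.72 for Trav and -0.19 for Trbv, 0.65 and -0.26 with TMM scaling, and 0.70 to 0.73 and -0.20 to -0.18 with a mouse left out. By family, the shares higher in all 5 mice numbered 5 for Trav and 1 for Trbv, and 5 Trav families were lower. Scaling to the Trav counts turned the sign of Trav8-1 (-0.01), Trav13-1 (-0.16) and Trav12-2 (-0.22) in control mice and of Trbv29 (-0.42), Trav8n-2 (-0.01), Trav13n-1 (-0.11), Trav8-1 (-0.03), Trav12-2 (-0.09) and Trav17 (-0.14) in cKO mice. Scaling to the Trbv counts turned that of Trbv12-2 (0.03), Trbv3 (0.06) and Trbv12-1 (0.05) in control and of Trbv13-3 (0.01) in cKO mice. Both follow from the scaling, which sets the mean change of that locus near 0. Over the other alternatives for single segments and Trac, 586 values kept their call, 24 lost it and 0 turned. Values under the higher minimum of summed counts come from the main fit itself. They could not change, so they are no check of the calls. With a mouse left out, 306 values kept their call, 54 lost it and 0 turned. Depth limits the scarce segments: 3 counts are 0.0461 to 0.0586 CPM. Trgv2 and Tcrg-V4 lie within a few times that in most activated libraries, though higher at rest, and many d and n copies lie near it too.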

Other observations

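Position along the alpha locus is given as a description. The 93 tested Trav segments were split by distance from Trac, in the deposited coordinates, into 3 groups of 31. In the distal group, 1177.6 to 1791.6 kb from Trac, the median log2 fold change with activation was 0.73 in control and 1.08 in cKO mice. In the middle group it was 0.64 and 0.64, and in the proximal group, 343.8 to 750.3 kb away, it was 0.54 and 0.60. Distance and log2 fold change correlated across segments at a Spearman rho of 0.20 in control and 0.25 in cKO mice. Over the 39 segments with at least 50% unique windows rho was 0.31 and 0.21. Segments are not independent, share the libraries and, in part, reads. The distal segments also had lower counts (median 0.57 CPM at rest against 2.16 CPM in the proximal group) and fewer unique windows (median 15.9% against 55.8%), and the part of either in this trend was not tested.

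Pseudogenes of the V loci, which the comparisons above do not use, stood at 5.61 ± 0.555 CPM at rest and 6.2 ± 0.689 CPM after activation, summed over 34 rows. Of the 10 tested, 1 rose and 1 fell in control mice, and 1 rose and 2 fell in cKO mice. Immunoglobulin V rows, a sign of B cells, went from 0.883 to 6.67 CPM at rest to 0.215 to 0.673 CPM after activation.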
